A study of Mus musculus with 6 samples.

Results

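The genes examined encode receptors first described on natural killer cells and the small adaptor proteins through which such receptors signal. They were chosen by symbol, as the rows of the deposited count table for Klrb1c, Klrd1, Klrk1, Klrc1, Klre1, Klrg1, Ncr1, Fcer1g, Tyrobp and Hcst, and made up 10 of the 55401 genes listed. RNA was sequenced from mouse T cells in 6 cultures, 3 with the supernatant of NFL-activated macrophages and 3 with the supernatant of untreated control macrophages. NFL is neurofilament light chain, a structural protein of axons. Both groups were the same kind of spleen cell, picked with magnetic beads against CD8a, and both received macrophage supernatant at 50% of a medium with 2% serum. The macrophages of both groups were raised from CD11b-selected spleen cells with 50 ng/mL M-CSF for 7 days. The NFL group differed in that its macrophages had received 5 µg/mL NFL for 24 h, a preparation that the design text describes as freeze-thawed sciatic nerve, and the co-culture methods of the study give another concentration. Strain, sex and age of the spleen donors are not given in the labels, nor is it stated whether the 3 cultures of a group came from separate animals, so the p-values measure the spread between these samples, which may be technical.

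Natural killer cells read the surface of other cells through activating and inhibitory receptors, many of which are C-type lectin-like proteins encoded side by side in the natural killer gene complex. Activating receptors of this kind have short tails and depend on adaptors. The FcRγ chain (Fcer1g) and DAP12 (Tyrobp) carry an immunoreceptor tyrosine-based activation motif that recruits the kinases Syk and ZAP-70, whereas DAP10 (Hcst) carries a motif that recruits phosphoinositide 3-kinase and GRB2. Inhibitory receptors such as the NKG2A chain (Klrc1) and KLRG1 instead recruit phosphatases. Activated CD8+ T cells can take up several of these genes, and Klrg1 in particular is used as a marker of terminally differentiated effector T cells.

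All 10 genes were found under the identifiers of GENCODE M21 on GRCm38, and the coordinates here are from that annotation, although the submitters' processing notes name GRCm39. Of the receptor genes, 5 (Klrb1c, Klre1, Klrd1, Klrk1 and Klrc1) lie within 0.9 Mb of chromosome 6 (128778485 to 129678973), and Klrg1 lies outside this stretch on the same chromosome (122270596 to 122282882). Ncr1 is on chromosome 7 (4337724 to 4345164) and Fcer1g is on chromosome 1 (171229572 to 171234365). Tyrobp (30413760 to 30417585) and Hcst (30417712 to 30419854) are neighbours on chromosome 7, transcribed towards each other with 126 bases between them. Klrb1c (128778485 to 128789215, minus strand) shares 413 exon bases with the predicted gene Gm44511 on the same strand, which had 0 counts in each of the 6 libraries. How reads in shared exons were counted is not given in the sources used here.

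The sequences before the start sites of Klrb1c, the member that fell, and of Fcer1g and Hcst, the adaptors with the highest levels, are shown to give the DNA that lies beside these values. Each is the 250 bases upstream of the RefSeq start (GRCm38.p6, minus strand, chr6:128788642-128788891 for Klrb1c, chr1:171234350-171234599 for Fcer1g and chr7:30419855-30420104 for Hcst), 5′ to 3′ in the direction of transcription. Capitals mark matches on either strand to the cores TGTGGT (RUNX), AGGTGT (T-box) and GGAAGT (ETS), or to the NF-κB consensus.
Klrb1c: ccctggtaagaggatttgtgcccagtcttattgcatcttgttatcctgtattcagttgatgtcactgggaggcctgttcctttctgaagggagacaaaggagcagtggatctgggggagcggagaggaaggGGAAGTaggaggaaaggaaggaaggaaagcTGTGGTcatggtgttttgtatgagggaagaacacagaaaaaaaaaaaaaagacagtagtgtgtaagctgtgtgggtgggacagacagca
Fcer1g: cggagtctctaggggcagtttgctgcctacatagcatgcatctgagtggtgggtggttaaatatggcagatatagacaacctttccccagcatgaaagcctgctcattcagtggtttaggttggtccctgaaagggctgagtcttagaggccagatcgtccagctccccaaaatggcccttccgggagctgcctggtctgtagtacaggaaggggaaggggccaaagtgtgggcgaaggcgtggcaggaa
Hcst: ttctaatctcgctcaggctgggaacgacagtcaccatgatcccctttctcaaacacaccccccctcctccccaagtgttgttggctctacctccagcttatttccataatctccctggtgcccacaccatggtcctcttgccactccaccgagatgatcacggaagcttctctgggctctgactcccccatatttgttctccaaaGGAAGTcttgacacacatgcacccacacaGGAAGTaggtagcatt
The Klrb1c window held 1 RUNX core at positions -89 to -84 from the start and 1 ETS core at -119 to -114. It lies inside the M21 span of the gene, which reaches to 128789215. The Fcer1g window overlaps the M21 span of its gene, which reaches to 171234365. The Hcst window held 2 ETS cores, and the Fcer1g window held none of the motifs searched. The T-box core and the NF-κB consensus were in none of the 3 windows. Among 32851 windows of the same length, 14.0% held the RUNX core, 11.8% the T-box core, 19.7% the ETS core and 7.25% the NF-κB consensus, so each match is one that many promoters share. None of the motifs searched overlapped another in these windows.

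Library totals ran from 15843045 to 24639756 counts. Levels are given as CPM, the usual scaling of counts to a common library total, here adjusted by TMM, on which scale the floor of 3 counts lay between 0.122 and 0.189. The floors cover counting error only, whereas the 95% intervals of fold changes come from the edgeR fit and include the spread between libraries. The T-cell markers were uneven. The median over the 6 libraries was 548 CPM per kb of annotated exon for Thy1, 477 for the T-cell receptor β constant gene Trbc1, 82.4 for Trbc2 and 13.1 for Cd3e. It was 2.33 for Cd3g, 2.29 for Cd3d and 1.70 for the α constant gene Trac, and Cd6 had 2 counts in total. The coreceptor genes were low for cells selected on CD8a, at 1.08 CPM per kb for Cd8a and 0.862 for Cd8b1, below the 6.39 of Cd4, and Cd5 had 0 counts. The cells are called T cells here after their labels, and their identity was not tested. Libraries of one group differed by more than counting noise in every pair (chi-square per degree of freedom 1.88 to 3.42), so none was a copy of another. The labels name no batch and no date.

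Which members were expressed was established first. The 4 that passed the count filter and entered the test were Klrb1c, Fcer1g, Hcst and Tyrobp, while the other 6 did not reach it. Thus the cells carried transcripts of the 3 adaptors but of only 1 of the 7 receptors at a level that could be tested.

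Among the receptors, Klrb1c, which encodes the activating receptor NK1.1 (NKR-P1C), had 799, 473 and 804 counts in control replicates 1 to 3 and 361, 390 and 389 counts in NFL replicates 1 to 3. Klrd1, which encodes CD94, the shared partner chain of the NKG2A and NKG2C receptors, had 0 counts in all 6 libraries, as did Ncr1, which encodes NKp46. With 0 of 24639756 counts in the deepest library, a level of up to 0.122 CPM is allowed, and 0 counts over all 6 libraries allow up to 0.0258 CPM. Klrk1, which encodes the activating receptor NKG2D, and Klrc1, which encodes NKG2A, each had 1 count in total, both in control replicate 1. The defining receptor of most natural killer cells, NKp46, was therefore not detectable at this depth, and neither chain of the CD94/NKG2A pair was above the floor.

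Klre1, which encodes a receptor that pairs with the products of Klri1 and Klri2, had 4, 2 and 3 counts with control supernatant and 2, 2 and 4 with NFL supernatant. Both of its partner genes had 0 counts. Klrg1, the inhibitory cadherin receptor, had 0, 2 and 7 counts with control supernatant and 1, 7 and 10 with NFL supernatant. The groups overlapped for Klrg1 (exact two-sided permutation p = 0.3), with 9 counts in total in the control and 18 in the NFL cultures. A fit without the count filter gave Klrg1 a log2 fold change of 1.30 (edgeR adjusted p = 0.664) and Klre1 a value of 0.17 (edgeR adjusted p = 0.969), and a difference was not detectable at this depth for either.

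**Figure D1:**
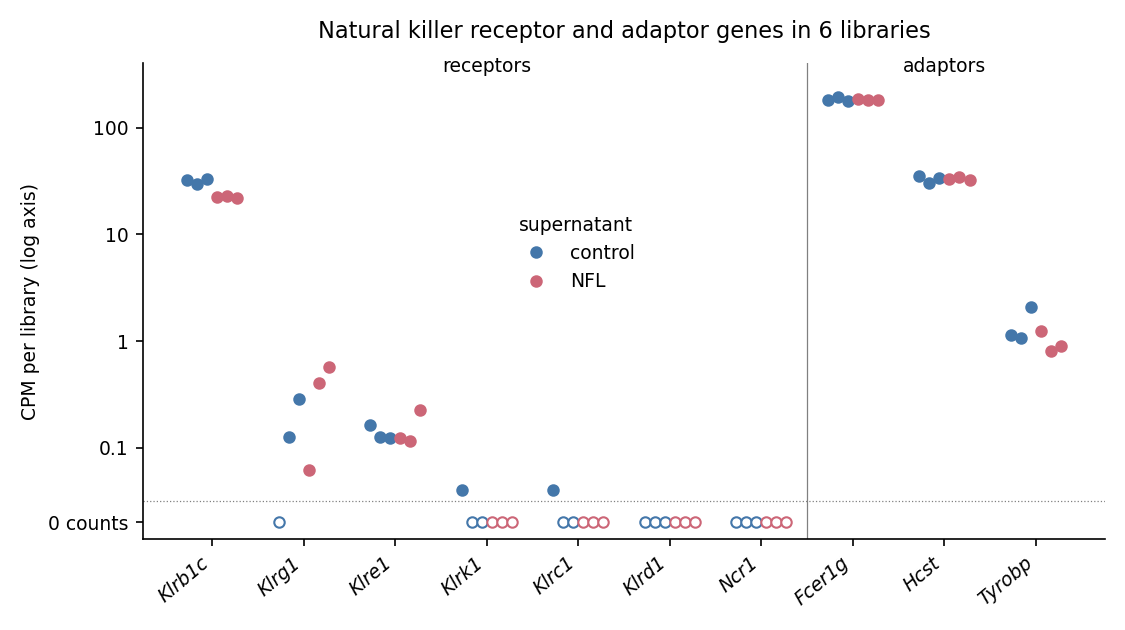
CPM of each member in each library on a log axis, with control cultures in blue, NFL cultures in red and open circles on the lowest line for libraries with 0 counts. Klrb1c and the adaptors Fcer1g and Hcst lie above 20 CPM, Tyrobp lies between 0.814 and 2.09 CPM, and the other receptors stay at or below 0.566 CPM.

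Per kb of annotated exon, the level with control supernatant was 212 ± 9.21 CPM per kb for Fcer1g, 46.1 ± 3.51 for Hcst, 10.7 ± 0.591 for Klrb1c and 2.15 ± 0.855 for Tyrobp (SD, n = 3 each). This order held in the NFL cultures, at 208 ± 2.81, 45.8 ± 1.51, 7.56 ± 0.109 and 1.48 ± 0.338 CPM per kb (SD, n = 3 each), and no 2 neighbours in it came within their spread. Below them, Klrg1 (0.0971 ± 0.102 CPM per kb) and Klre1 (0.0392 ± 0.00636 CPM per kb; SD, n = 3 each) did not differ beyond their spread with control supernatant. FcRγ is the adaptor with which NK1.1 associates, and its transcript stood far above that of the receptor on this scale. The transcript of DAP10 was present without that of the receptor it is best known for, since Klrk1 was at 1 count.

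The expressed members were then compared between the 2 groups, to ask whether the natural killer receptor genes of these cells differ with the supernatant of NFL-activated macrophages. Klrb1c fell, and the other 3 tested members did not pass the threshold. Of the 10 members, 4 were tested and 1 was past an adjusted p of 0.05 in edgeR's quasi-likelihood test, beside 7.00% of all 14082 genes tested. That 1 was lower and 0 were higher, beside 3.53% lower and 3.47% higher among all genes. Scaling by library totals without TMM moved the split of all calls from 489 higher and 497 lower to 372 higher and 600 lower. The median log2 fold change of the 4 tested members was -0.27, beside -0.00099 for all tested genes. The single values were -0.56 for Tyrobp, -0.51 for Klrb1c, -0.025 for Fcer1g and -0.017 for Hcst, so this median describes no shared shift.

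Klrb1c had 32.5, 29.7 and 32.9 CPM in the control cultures and 22.4, 22.7 and 22 CPM in the NFL cultures. Every NFL library lay below every control library, as was the case in one direction or the other for 22.7% of all tested genes (two-sided exact permutation test, p = 0.1, which is the lowest value possible with 3 libraries a group). The mean was 31.7 ± 1.75 CPM in the control cultures and 22.4 ± 0.322 CPM in the NFL cultures (SD, n = 3 each). The log2 fold change was -0.51 (standard error 0.075, 95% interval -0.66 to -0.36, edgeR adjusted p = 2.4e-06), so that the transcript fell by 29.6%. In bulk RNA, fewer cells that express the gene and less RNA per cell cannot be told apart. By p-value Klrb1c ranked 82 of 14082 genes, and 60 genes past the threshold had a larger fall. Other genes of the Klrb1 family could share its reads. Over all libraries Klrb1c had 3216 counts, whereas Klrb1b had 0, Klrb1a 12, Klrb1 15 and Klrb1f 179.

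Fcer1g had 182, 194 and 179 CPM in the control cultures and 185, 180 and 180 CPM in the NFL cultures. The groups overlapped, and the log2 fold change was -0.025 (standard error 0.035, 95% interval -0.095 to 0.045, edgeR adjusted p = 0.778). This interval excludes a fall of the size seen for Klrb1c. Hcst had 35.5, 30.5 and 33.8 CPM in the control cultures and 32.6, 34.3 and 32.3 CPM in the NFL cultures, again overlapping, with a log2 fold change of -0.017 (standard error 0.070, 95% interval -0.16 to 0.12, edgeR adjusted p = 0.937). The transcripts of both major adaptors were thus measured to within narrow limits, and neither passed the threshold.

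Tyrobp, whose product DAP12 serves many activating receptors of natural killer and myeloid cells, had 1.14, 1.07 and 2.09 CPM in the control cultures and 1.24, 0.814 and 0.906 CPM in the NFL cultures. Control replicate 3 stood above the rest, and the groups overlapped. The log2 fold change of -0.56 (standard error 0.364, 95% interval -1.29 to 0.17) did not pass the threshold (edgeR adjusted p = 0.440), and it was -0.17 without control replicate 3. At 146 counts in total, a change of the size seen for Klrb1c could not be told from none.

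**Figure D2:**
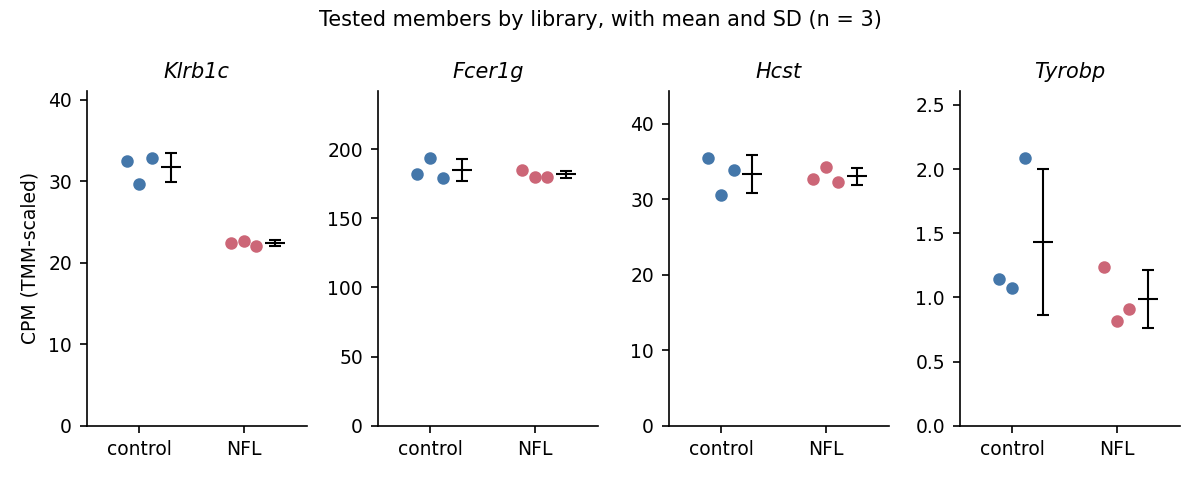
CPM of the 4 tested members in each library on linear axes from 0, with the mean and SD of 3 libraries in black. The groups separate for Klrb1c (31.7 against 22.4 CPM) and overlap for Fcer1g, Hcst and Tyrobp.

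Fcer1g and Tyrobp are also genes of macrophages and mast cells, so the markers of other cell types were examined beside them. Of 14 macrophage markers, 7 were at 0 counts in all libraries, among them C1qa, C1qb, C1qc, Cd14 and Itgam, and Lyz2 reached at most 0.116 CPM. The summed level of the list was 25.3 to 28.5 CPM in the control cultures and 20.3 to 24.6 CPM in the NFL cultures, nearly all of it from the lysosomal protein gene Cd68, which fell by 16.2% (log2 fold change -0.26, edgeR adjusted p = 0.0494). Among 9 mast cell and basophil markers, Ms4a2, the β chain of the IgE receptor that shares the FcRγ chain, was at 0 and Fcer1a had at most 0.0581 CPM, with summed levels of 3.05 to 3.27 and 3.11 to 3.85 CPM. The 3 that could be tested were Kit (median 1.51 CPM), Mcpt8 (1.20 CPM) and Hdc (0.570 CPM), beside a median of 1.10 CPM for Tyrobp. None of them passed the threshold. The 7 B-cell markers summed to 12.1 to 13.2 and 11.6 to 14.1 CPM, led by Pax5, with Ms4a1 and Ighm at 0. Of 6 markers of γδ and natural killer T cells, 4 were at 0, among them Trdc, Zbtb16 and Trav11, and the list summed to 0.502 to 1.95 CPM in the control and 0.311 to 0.963 CPM in the NFL cultures. Nearly all of this sum came from Tcrg-C2, which had 113 counts in total. It did not pass the threshold (log2 fold change -0.94, 95% interval -1.83 to -0.052, edgeR adjusted p = 0.223). The 12 T-cell markers summed to 2120 to 2230 and 2090 to 2180 CPM, most of it from Thy1 (median 1640 CPM) and Trbc1 (357 CPM). Of the 10 tested, 1, Cd3e, was past the threshold (log2 fold change -0.28, edgeR adjusted p = 5.7e-04), beside 7.00% of all genes tested. Whether Cd68 and Cd3e have any part in the fall of Klrb1c was not tested.

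Other receptors of natural killer cells ranged from undetected to clearly expressed. Of 29 listed genes, 28 were matched to a row. Of these, 12 were at 0 counts in every library, including 9 of the 11 Ly49 genes (Klra), and 8 could be tested. Of the 8, 1 rose and 1 fell (25%, beside 7.00% of all genes tested), with a median log2 fold change of 0.10. This list too was chosen with earlier results of these data known. Tigit, an inhibitory receptor for CD155, had 10.8, 11.2 and 9.05 CPM in the control cultures and 7.21, 6.16 and 7.19 CPM in the NFL cultures. The groups did not overlap, and the difference was -0.59 on the log2 scale (95% interval -0.85 to -0.32, edgeR adjusted p = 0.00209). Lilr4b, which encodes gp49A, rose from 2.99 ± 0.351 to 4.82 ± 0.290 CPM (SD, n = 3 each; log2 fold change 0.70, edgeR adjusted p = 0.0157), a call that was lost when control replicate 1, NFL replicate 2 or NFL replicate 3 was left out (highest edgeR adjusted p = 0.0851) and when counts were thinned to the smallest library (edgeR adjusted p = 0.0574). It is closely similar in sequence to the inhibitory receptor gene Lilrb4a, with which it could share reads. Lilrb4a had 4.71 ± 0.932 CPM in the control and 6.55 ± 0.608 CPM in the NFL cultures (SD, n = 3 each). It did not pass the threshold (log2 fold change 0.45, edgeR adjusted p = 0.0868).

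Receptors that use the same adaptors were among the others that did not pass the threshold. Fcgr3, which encodes the CD16 Fc receptor chain that also depends on FcRγ, averaged 36.4 ± 1.70 CPM in the control cultures and 36.3 ± 2.65 CPM in the NFL cultures (SD, n = 3 each; log2 fold change -0.0073, 95% interval -0.14 to 0.13, edgeR adjusted p = 0.974). Klrb1f, a relative of Klrb1c, had 1.06, 1.51 and 1.31 CPM in the control cultures and 1.86, 2.09 and 1.76 CPM in the NFL cultures. Its groups did not overlap, in the direction opposite to that of Klrb1c, but the difference did not pass the threshold (log2 fold change 0.58, 95% interval -0.061 to 1.21, edgeR adjusted p = 0.327).

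On the ligand side, 18 of 22 listed genes were matched to a row, and Raet1a, Raet1b, Raet1c and H60a were not. Of the 18, 8 could be tested, and 2 rose while none fell past the threshold (median log2 fold change 0.064). That was 25% of those tested, beside 7.00% of all genes tested, in a list chosen with earlier results of these data known. The classical class I gene H2-K1, whose product is a ligand of Ly49 receptors, rose from 833 ± 14.1 to 974 ± 10.1 CPM (SD, n = 3 each; log2 fold change 0.23, edgeR adjusted p = 1.1e-08). H2-D1, also a class I gene of the list, had 856 ± 26 and 898 ± 14.3 CPM (SD, n = 3 each). It did not pass the threshold (log2 fold change 0.067, 95% interval 0.012 to 0.12, edgeR adjusted p = 0.143). Ulbp1, which encodes the NKG2D ligand MULT1, rose from 367 ± 8.16 to 401 ± 7.83 CPM (SD, n = 3 each; log2 fold change 0.13, edgeR adjusted p = 0.00341). The cells thus held an NKG2D ligand transcript while that of the receptor, Klrk1, was under the floor. Clec2i, a ligand gene for the Klrb1 family, had 187 ± 10.3 and 195 ± 5.55 CPM (SD, n = 3 each; edgeR adjusted p = 0.383). The Qa-1 gene H2-T23, whose product the CD94/NKG2A receptor binds, had 41 counts in all and was under the filter, as were the cadherin genes Cdh1, Cdh2 and Cdh4 whose products KLRG1 binds.

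Of 25 genes for kinases, linkers and phosphatases that act after these receptors, 22 could be tested, and 5 fell while 1 rose (median log2 fold change -0.086). That was 27.3% of those tested, beside 7.00% of all genes tested, in a list chosen with earlier results of these data known. Pik3cd, the catalytic phosphoinositide 3-kinase subunit p110δ, fell from 261 ± 8.36 to 222 ± 1.03 CPM (SD, n = 3 each; log2 fold change -0.23, edgeR adjusted p = 5.7e-07). Lat, an adaptor that ZAP-70 phosphorylates, had a log2 fold change of -0.26 (edgeR adjusted p = 8.7e-04), and the Src-family kinase gene Fyn one of -0.20 (edgeR adjusted p = 1.7e-04). These 3 calls held with each library left out. Zap70 (-0.12, edgeR adjusted p = 0.0282) and the phosphatase gene Inpp5d (-0.22, edgeR adjusted p = 0.0383) were each past the threshold only by a little. Zap70 lost its call without control replicate 1, control replicate 2, NFL replicate 2 or NFL replicate 3 (highest edgeR adjusted p = 0.188). Inpp5d kept its call in 1 of the 6 fits with a library left out, that without control replicate 2. Of the 2 kinases that bind the activation motif of the adaptors, Zap70 had a median of 63.2 CPM per kb of exon over the 6 libraries and Syk 0.136.

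Transcription factors, surface genes and effectors typical of natural killer cells formed the last list, and 20 of its 23 genes could be tested. Of these, 7 fell and 3 rose (median log2 fold change -0.079). That was 50% of those tested, beside 7.00% of all genes tested, in a list chosen with earlier results of these data known. Gzma, which encodes granzyme A, had 270, 239 and 275 CPM in the control cultures and 194, 186 and 195 CPM in the NFL cultures. The groups did not overlap, and the log2 fold change was -0.45 (95% interval -0.53 to -0.38, edgeR adjusted p = 1.1e-13). Smaller falls were found for Id2 (-0.22, edgeR adjusted p = 3.9e-07), Runx3 (-0.14, edgeR adjusted p = 0.00163) and Nfil3 (-0.17, edgeR adjusted p = 0.00348), which encode transcription factors of innate and cytotoxic lymphocytes. Both chains of the interleukin-18 receptor fell in log2 CPM, Il18r1 by 0.40 (edgeR adjusted p = 0.0170) and Il18rap by 0.61 (edgeR adjusted p = 0.0181), as did Il2rb by 0.12 (edgeR adjusted p = 0.00807). These 3 calls were each lost without NFL replicate 3, and that of Nfil3 was lost without control replicate 1 (edgeR adjusted p = 0.0966). The other losses were those of Il18r1 without control replicate 2 or NFL replicate 1, and of Il18rap and Il2rb without control replicate 1 or NFL replicate 2.

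The 3 rises in that list were in cytokine, chemokine and cytokine receptor genes. Ifng, which encodes interferon γ, rose from 10.6 ± 1.92 to 19.1 ± 0.714 CPM (SD, n = 3 each; log2 fold change 0.82, edgeR adjusted p = 1.2e-07). Il12rb2, a chain of the interleukin-12 receptor, had a log2 fold change of 0.41 (edgeR adjusted p = 1.5e-06), and it shares 1519 exon bases with the abundant antisense gene Serbp1, whose reads cannot be told apart from its own if strand was not used in counting. The chemokine gene Ccl5 had one of 0.96 (edgeR adjusted p = 1.9e-04). Eomes, with a median of 432 CPM, had a log2 fold change of -0.042 (95% interval -0.10 to 0.017, edgeR adjusted p = 0.486), and Nkg7 had a value of -0.029 at a median of 719 CPM (edgeR adjusted p = 0.644). Tbx21, another transcription factor gene of the list, had a log2 fold change of -0.21 at a median of 21.1 CPM (95% interval -0.38 to -0.040). It did not pass the threshold (edgeR adjusted p = 0.134), although its groups did not overlap, as for 22.7% of all tested genes. Prf1, the perforin gene, had a median of 44.6 CPM and a log2 fold change of 0.0375 (95% interval -0.085 to 0.16, edgeR adjusted p = 0.814). The remaining effector genes of the list were low, with medians of 2.31 CPM for Gzmb, 0.875 for Fasl, 0.551 for Ccl4 and 0.510 for Xcl1, and Ccl3 had 0 counts.

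**Figure D3:**
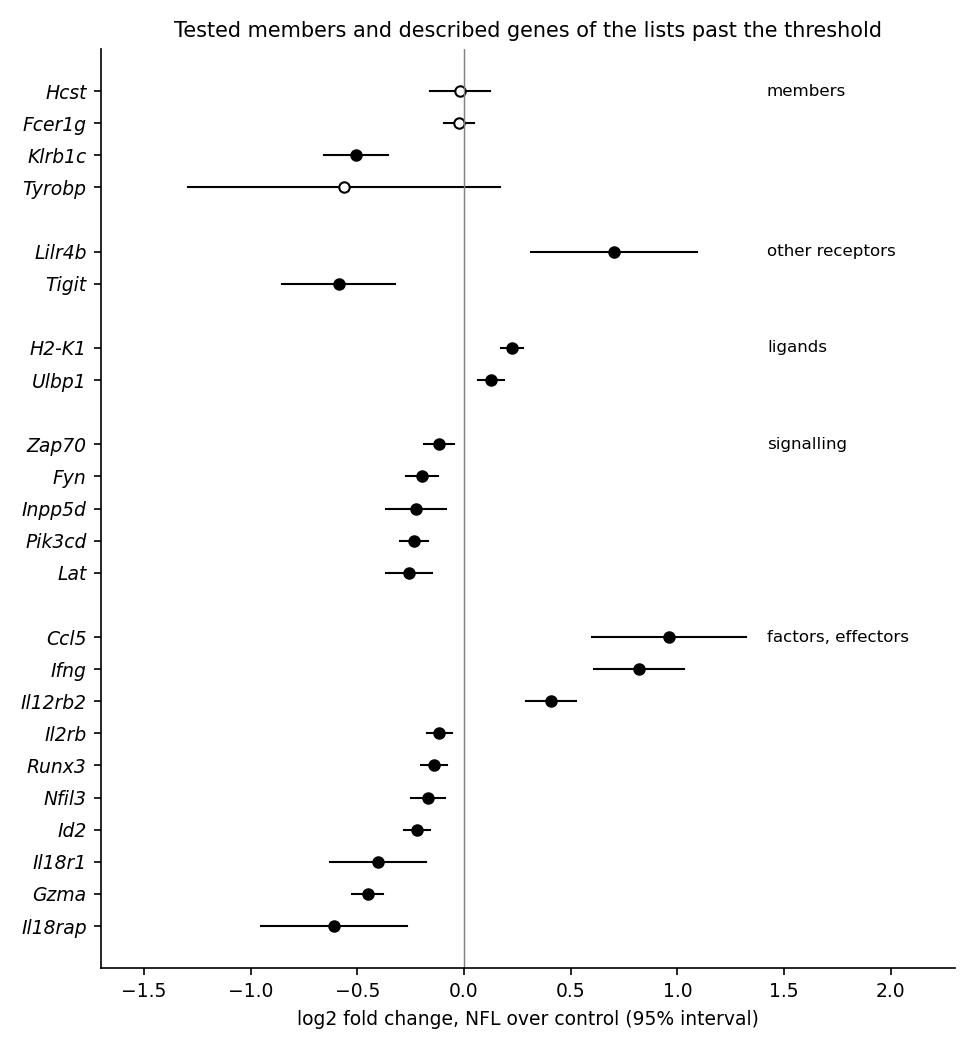
Log2 fold change (NFL over control) with its 95% interval for the 4 tested members and for the genes described from the 4 wider lists past the threshold, filled where the edgeR adjusted p was under 0.05. Klrb1c lies at -0.51, between Tigit (-0.59) and Gzma (-0.45), while Fcer1g and Hcst lie beside 0.

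The genes whose level followed that of Klrb1c most closely over the 6 libraries were Slc26a11 (Pearson r = 0.996), Lrrc8c (0.995) and Sla2 (0.993), among the 11322 tested genes whose log2 CPM averaged 1 or more. Their log2 fold changes were -0.42, -0.16 and -0.35, and the 6 points share libraries and the group difference, with 133 genes at an r of 0.95 or more. For Tyrobp the closest were Insig2 (0.980), Dtl (0.974) and Rhox2g (0.973), with 16 genes at 0.95 or more. These had log2 fold changes of -0.0425, -0.0135 and -0.0998, beside -0.56 for Tyrobp.

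The log2 fold change of Klrb1c was recomputed under 14 other settings and stayed between -0.55 and -0.48, with an adjusted p of at most 2.5e-04. The lowest value came without control replicate 2 and the highest without control replicate 3. Without the filter on low counts, the value was -0.51.

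**Figure D4:**
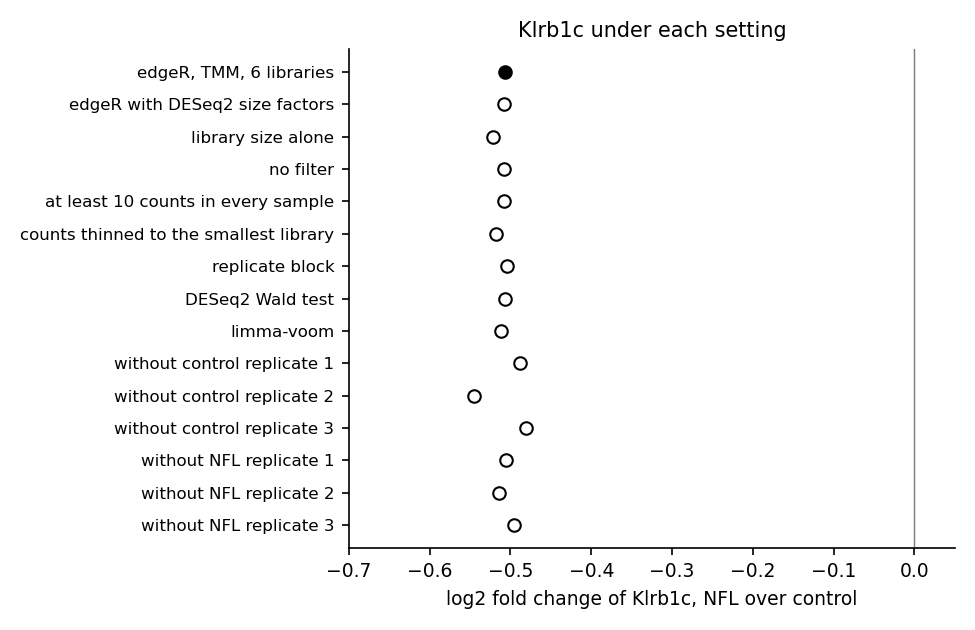
Log2 fold change of Klrb1c (NFL over control) with edgeR on all 6 libraries, filled, and under the 14 other settings, open. All values lie between -0.55 and -0.48.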

How the data were processed

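Poly(A)-selected RNA of 6 mouse T-cell cultures was sequenced on an Illumina instrument. The authors deposited raw read counts per gene without normalization, 1 column per sample. Columns were matched to samples by group letter and number, and 0 columns were left over. The processing notes name GRCm39, R 4.2.1 and limma 3.54.2 without roles, whereas 54349 of the 55401 identifiers were identical to GENCODE M21 (GRCm38). The aligner, the counter and the strand setting are not given in the sources used here. Symbols were found for 55141 identifiers, and 5 listed genes had no matching row and were not analysed here. A gene of the signalling list is counted but not reported here.

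Genes were kept by filterByExpr of edgeR 4.0.16 in R 4.3.3 (minimum count 10, minimum total 15), scaled by TMM (factors 0.994 to 1.007) and tested with glmQLFit and glmQLFTest, with Benjamini-Hochberg adjustment over all 14082 genes and a threshold of 0.05. Standard errors were derived from the F statistic. Length scaling used the union of M21 exons. DESeq2 1.42.0 and limma-voom 3.58.1 were alternatives, with other scalings, filters, thinning, left-out libraries and a replicate block. The procedure was tested on simulated data. Figures used matplotlib 3.10.9. Promoter sequences are those of RefSeq (GRCm38.p6), which matched 7 of the 10 members. The members and lists were chosen with earlier results of these data known. Genes named are the members, listed genes past the threshold, ligands, partners and paired receptors of members, cell type markers, and the 3 genes most correlated with each of the 2 members of smallest p. Genes outside that rule are not described, apart from Klrb1f, Lilrb4a, H2-D1, Eomes, Tbx21, Nkg7, Prf1, Gzmb, Fasl, Ccl3, Ccl4 and Xcl1, which were chosen after their values were seen.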

Additional observations from a re-analysis of the deposited data

How the results depend on the processing

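Under the 14 alternatives, the members past the threshold stayed at 1 lower and 0 higher, and the ligands at 2 higher and 0 lower. Fcer1g and Hcst, neither past the threshold, changed sign when 1 library was left out. Fcer1g ran from -0.051 to 0.010 (positive without control replicate 2) and Hcst from -0.066 to 0.035, the latter without control replicate 1, and it was 0.00092 without NFL replicate 3. With DESeq2's Wald test, 0 other receptors were higher, as no adjusted p was given for Lilr4b, and 0 signalling genes were higher and 3 lower. That test also gave 2 natural killer factors and effectors higher and 6 lower, against 3 and 7 in the main fit. With library size alone, 0 signalling genes were higher. With a library left out, genes higher ran from 250 to 514 and genes lower from 258 to 452, other receptors higher from 0 to 1, signalling genes higher from 0 to 1 and lower from 3 to 4, and natural killer factors and effectors lower from 4 to 7. Over all genes, 250 were higher and 258 lower without NFL replicate 3, 318 and 298 without NFL replicate 2, and 310 lower without control replicate 1. The causes were not tested.

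The deviations of same-numbered samples correlated by 0.012, 0.015 and 0.0074, and those of differently numbered samples by -0.016 to 0.0033. All were small, although each sample correlated best with its own number, so whether samples were paired cannot be told from them. With the replicate block, 536 genes were higher and 513 lower, Klrb1c had a log2 fold change of -0.50, and 1 member was past the threshold. DESeq2 gave no adjusted p for Tyrobp. The 6 members under the count filter were left out of the main test, and the interval of Tyrobp, at 146 counts in total, was wide. Whether more depth would alter either was not tested.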
